A study of Mus musculus with 2 samples.

Results

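Glycolysis and hypoxia response genes were examined in mDE6 cells, which are odontogenic epithelial cells of the mouse grown as a line, after 6 h with CHIR99021, an inhibitor of GSK-3 that activates the β-catenin pathway. The set held 34 genes, listed by name for glucose and lactate transport, the enzymes of glycolysis, the fate of pyruvate, oxygen sensing and other responses to hypoxia-inducible factor (HIF), and their probes were found by the gene name on the array. The array carried 37074 gene names, of which 18837 had a probe well above background on at least 1 array, and all 34 genes were among these. The 34 genes had 79 probes, 69 of them well above background on at least 1 array and 10 on neither.

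RNA was labelled with a single dye and hybridised to Agilent arrays, 1 for control cells and 1 for CHIR99021-treated cells. The sample labels give a vehicle control with DMSO and a dose of 5 mM, whereas the methods describe untreated control cells and 5 μM. With 1 array per condition no difference below has a replicate check, and no p-value is given. The arrays shared a slide, and the place on that slide and the treatment cannot be told apart. The RNA came from whole cultures, in which fewer cells of a type and less RNA per cell cannot be told apart.

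Glycolysis splits glucose into pyruvate, which is either reduced to lactate and exported or oxidised in the mitochondria. HIF-1, a pair of the oxygen-regulated Hif1a product and its partner Arnt, raises the transcription of glucose transporters, most glycolytic enzymes and many stress genes when oxygen is low. When oxygen is ample, the prolyl hydroxylases encoded by the Egln genes mark the HIF-1α protein for destruction through Vhl, and because Egln1 and Egln3 are themselves HIF targets, they form a feedback loop.

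Signal here is the background-subtracted brightness of a spot in intensity units. Ratios are CHIR99021 over control after division of each signal by the 75th percentile of the spots on the same array (487 in control, 469 in CHIR99021). Each gene was represented by its brightest probe that was well above background, and a gene was counted as higher at a ratio of at least 1.5 and as lower at a ratio of at most 0.66. The Z-score sets a log2 ratio against the 500 probes nearest in signal. Among 282 probes printed 10 times on each array, the log2 ratio had a median SD of 0.031 between spots, and the error estimated by the Feature Extraction software for a single log2 ratio had a median of 0.20 over the 34 genes, reaching 0.44 for Adm. Both figures describe error within an array and leave out the spread between cultures.

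The cell line was checked against marker genes. The epithelial markers Krt8, Krt19, Cdh1 and Epcam were not well above background on either array, and neither were the enamel genes Amelx, Ambn, Enam, Amtn and Odam, whereas Trp63, Cdh3 and Dlx2 were measured on both arrays and all 8 mesenchyme markers were well above background. Of 8 β-catenin response genes, 7 were well above background and 6 of these were higher on the CHIR99021 array, among them Rnf43 at a ratio of 2.49. Over all genes, 8.05% were higher. Among the 6, Axin2 and Nkd1 were well above background on the CHIR99021 array alone, at least 1.66-fold and 25.8-fold higher. The spot of Nkd1 on that array had uneven pixels. With a Z-score of at least 2.0 added, 3 of the 7 were higher, beside 2.63% of all genes. Of the mesenchyme markers 1 was higher and 0 were lower, and of the 5 epithelial markers well above background 1 was higher and 1 lower, and the part of cell makeup in the results below was not tested.

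Of the 34 genes, 16 were higher after CHIR99021 and 0 were lower. Over all 18837 genes, 8.05% were higher and 9.67% were lower. With a Z-score of at least 2.0 added to the ratio, 15 of the 34 genes were higher, beside 2.63% of all genes, and 0 were lower at a Z-score of at most -2.0, beside 3.22% of all genes. A ratio above 1 was found for 30 of the 34 genes and for 53.4% of all genes. The 500 probes nearest in signal had mean log2 ratios from -0.18 to 0.11 around the 34 genes. The median log2 ratio was 0.55 over the 34 genes and 0.024 over all genes. The log2 ratio exceeded 2.0 times the error estimated by the software for 21 of the 34 genes, 20 above 0 and 1, Bnip3l, below 0. The lowest and the median of that error over the 34 genes were both 0.204, so this count is close to a fixed cut on the ratio. Its share over all genes was not computed, and no conclusion is drawn from it. At the level of probes, 26 of the 65 probes measured on both arrays (40%) had a ratio of at least 1.5, compared with 5.49% of all probes measured on both arrays. The 4 tested probes well above background after CHIR99021 alone also had computed ratios of at least 1.5, but at their limits those of Tpi1 (1.48) and Adm (1.49) fell short of it. None of the 69 tested probes had a ratio of at most 0.66.

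**Figure D1:**
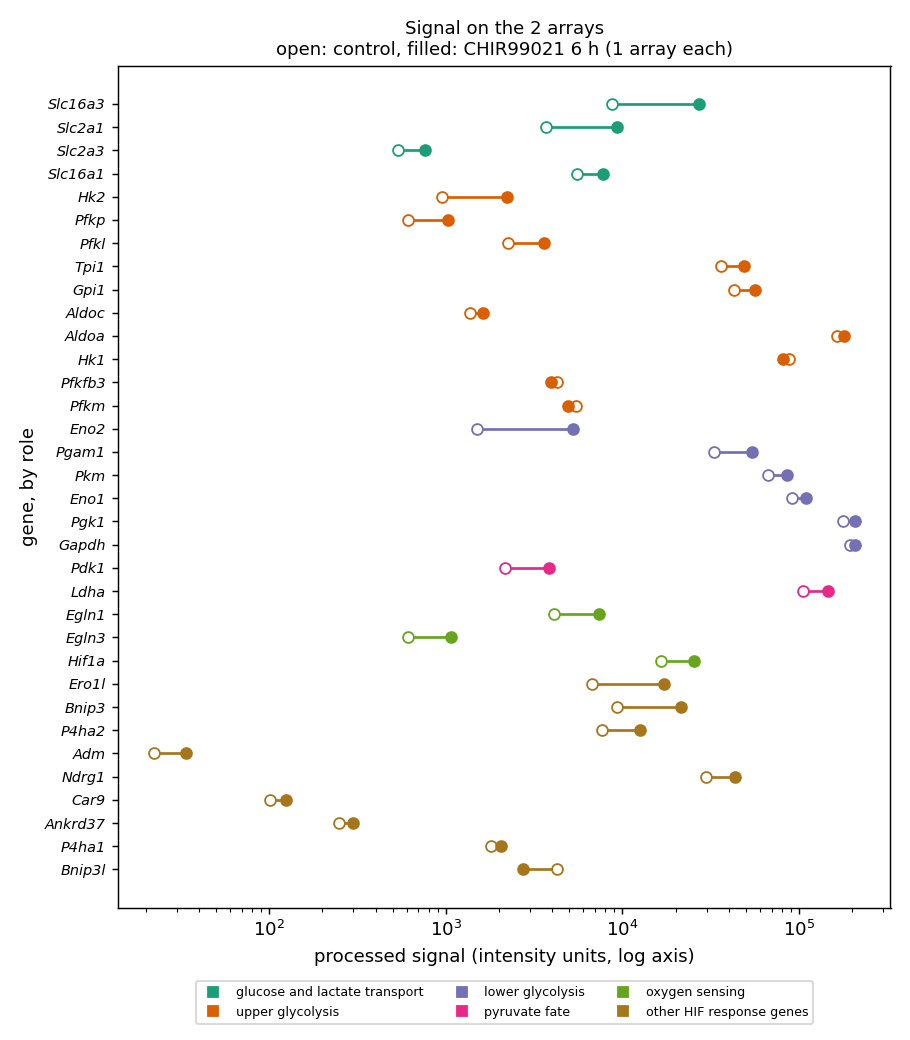
Signal of each of the 34 genes in control cells (open circles) and CHIR99021-treated cells (filled circles), as processed intensity on a log axis, by role and, within a role, by ratio. The distance from open to filled is widest for Eno2, Slc16a3, Ero1l, Slc2a1, Hk2 and Bnip3, while Hk1, Pfkfb3, Pfkm and Bnip3l have the filled circle on the left.

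The promoters of the 6 genes with the highest ratios are shown because HIF acts at promoters through a short core sequence, ACGTG or GCGTG on either strand, and a reader can see where these letters lie. Each line gives the 250 bases before the transcription start, 5′ to 3′ on the strand of the gene, from RefSeq annotation of GRCm38.p6, with the core in capitals, so that a core on the opposite strand reads CACGT or CACGC. The windows are chr6:124769674-124769923 (minus strand) for Eno2, chr11:120948817-120949066 (plus) for Slc16a3, chr14:45318573-45318822 (minus) for Ero1l, chr4:119108495-119108744 (plus) for Slc2a1, chr6:82774455-82774704 (minus) for Hk2 and chr7:138909507-138909756 (minus) for Bnip3.
Eno2: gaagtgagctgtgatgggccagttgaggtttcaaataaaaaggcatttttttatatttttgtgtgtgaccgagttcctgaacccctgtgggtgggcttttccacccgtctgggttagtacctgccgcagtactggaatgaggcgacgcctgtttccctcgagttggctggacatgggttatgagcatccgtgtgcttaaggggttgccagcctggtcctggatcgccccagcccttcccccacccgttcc
Slc16a3: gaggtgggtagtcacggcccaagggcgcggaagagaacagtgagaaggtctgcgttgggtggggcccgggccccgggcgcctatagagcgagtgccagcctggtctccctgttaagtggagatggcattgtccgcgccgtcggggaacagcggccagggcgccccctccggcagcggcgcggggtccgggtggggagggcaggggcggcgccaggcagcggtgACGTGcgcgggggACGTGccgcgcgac
Ero1l: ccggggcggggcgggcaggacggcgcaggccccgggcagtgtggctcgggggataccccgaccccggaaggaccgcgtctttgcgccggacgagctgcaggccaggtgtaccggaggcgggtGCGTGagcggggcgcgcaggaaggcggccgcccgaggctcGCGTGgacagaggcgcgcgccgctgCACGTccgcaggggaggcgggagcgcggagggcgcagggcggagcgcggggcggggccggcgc
Slc2a1: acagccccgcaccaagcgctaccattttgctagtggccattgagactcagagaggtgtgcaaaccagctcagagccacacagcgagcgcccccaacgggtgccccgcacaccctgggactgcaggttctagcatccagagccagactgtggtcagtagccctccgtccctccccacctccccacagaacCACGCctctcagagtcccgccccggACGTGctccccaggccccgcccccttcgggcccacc
Hk2: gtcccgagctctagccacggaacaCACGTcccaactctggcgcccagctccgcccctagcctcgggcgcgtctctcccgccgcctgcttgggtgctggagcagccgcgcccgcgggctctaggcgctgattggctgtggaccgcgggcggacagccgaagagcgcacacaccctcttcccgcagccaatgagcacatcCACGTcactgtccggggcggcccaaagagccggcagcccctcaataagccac
Bnip3: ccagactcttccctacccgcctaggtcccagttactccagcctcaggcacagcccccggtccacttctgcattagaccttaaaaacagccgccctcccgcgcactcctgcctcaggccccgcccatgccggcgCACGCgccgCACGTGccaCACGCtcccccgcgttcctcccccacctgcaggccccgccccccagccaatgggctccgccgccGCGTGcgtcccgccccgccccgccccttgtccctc
The core occurred 5 times in the window of Bnip3, 3 times in that of Ero1l, 2 times each in those of Slc16a3, Slc2a1 and Hk2, and 0 times in that of Eno2, the gene with the highest ratio. In the window of Bnip3, a core on each strand overlapped in the same run of capitals.

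A promoter entry was found for 31 of the 34 genes, with Ero1l under its current symbol Ero1a and no entry for Slc2a3, Ndrg1 and Bnip3l. Of the 31, 28 (90.3%) held at least 1 HIF core in a window, compared with 11226 of the 27025 genes in the promoter table (41.5%). That table also holds genes not detected on the arrays, and a gene with several promoters counted if any of them held a core. Counted by promoter, the share was 36 of 44 (81.8%), compared with 38.6% of all promoters. The members' windows were also richer in G and C, with a median of 62.8% compared with 52.4% over all genes, and the part of base composition in the count was not tested. Many of the 34 genes were listed because they are known HIF targets, so that the share is a description of the list. Within the list, the share was 14 of 15 (93.3%) for genes that were higher and 14 of 16 (87.5%) for genes that were not. By promoter, these shares were 14 of 16 (87.5%) and 22 of 28 (78.6%). The core of the β-catenin partners TCF and LEF, CTTTGA or CTTTGT on either strand, was found for 6 of the 31 genes (19.4%) and for 30.8% of all genes. A match gives the letters alone and does not show that a factor binds there.

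Of the 4 transporters, 2 were higher. Slc16a3, which encodes the lactate exporter MCT4, had a signal of 8688 in control cells and 27001 after CHIR99021, a ratio of 3.22 (log2 1.69, Z-score 5.91). Its probe lies at chr11:120820023-120820082 in mm9, the build of the array files, which name the gene but not the exon. Slc2a1, the glucose importer GLUT1 found in most cells, had signals of 3712 and 9319.6, a ratio of 2.60 (log2 1.38, Z-score 4.28), with its probe at chr4:118809864-118809923. The other 2 transporters lay just under the ratio criterion. Slc2a3, the high-affinity importer GLUT3, had signals of 536 and 764, a ratio of 1.48, and passed the criterion under 1 of 11 alternatives, median scaling. Slc16a1, the lactate carrier MCT1, had signals of 5563 and 7717, a ratio of 1.44. All 4 transporters thus had a ratio above 1, and the median of their log2 ratios was 0.97.

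Of the 10 genes of upper glycolysis, 3 were higher. Hk2, the inducible hexokinase that traps glucose in the cell, had signals of 956 and 2224, a ratio of 2.41 (log2 1.27, Z-score 3.63), at chr6:82675056-82675115 in mm9. Hk1, the hexokinase present in most tissues, had signals of 88043 and 81246, a ratio of 0.957. Its second probe had signals of 5656 and 7847, a ratio of 1.44, which makes Hk1 the only gene among the 17 with several tested probes whose probes differed in sign. The hexokinases thus differed in ratio by more than the error estimated for either log2 ratio, although the direction of Hk1 depends on the probe.

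Phosphofructokinase, the committed step of glycolysis, is built from the subunits Pfkl, Pfkm and Pfkp, and these differed in ratio. The platelet-type subunit Pfkp had signals of 612 and 1032, a ratio of 1.75, and a second probe measured on both arrays gave the same log2 ratio of 0.81. The liver-type subunit Pfkl had signals of 2259 and 3611, a ratio of 1.66, with a second probe at 2.27. The muscle-type subunit Pfkm had signals of 5435 and 4938, a ratio of 0.943. Pfkfb3, which makes the activator fructose 2,6-bisphosphate, had signals of 4285 and 3920.2, a ratio of 0.949, and 0.929 at its dimmer probe. Pfkm and Pfkfb3 therefore stood apart from Pfkl and Pfkp, with log2 ratios of -0.085 and -0.075 that lie within the estimated error of 0.

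The remaining enzymes of upper glycolysis all had ratios between 1.15 and 1.40. Tpi1, triosephosphate isomerase, had signals of 36291 and 49125, a ratio of 1.40. Gpi1, glucose-6-phosphate isomerase, had signals of 42959.7 and 56716, a ratio of 1.37, with the log2 ratios of its 4 probes between 0.42 and 0.59. The aldolases came lowest, with Aldoc at 1364 and 1614, a ratio of 1.23, and Aldoa at 163301 and 181084, a ratio of 1.15.

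Of the 6 genes of lower glycolysis, 2 were higher and all 6 had a ratio above 1. Eno2, the enolase isoform best known from neurons, had the highest ratio of the 34 genes, with signals of 1509.6 and 5223, a ratio of 3.59 (log2 1.84, Z-score 5.76), at chr6:124710388-124710447 in mm9. The ubiquitous enolase Eno1 had signals of 91285 and 109448, a ratio of 1.24. Its dimmer probes gave 1.40 and 2.44, the latter designed on another transcript, so that the size for Eno1 depends on the probe. Pgam1, phosphoglycerate mutase, had signals of 33161 and 54111, a ratio of 1.69, and its probe was printed 10 times with a log2 ratio of 0.76 ± 0.05 (SD between spots of the same arrays), every spot between 0.67 and 0.82.

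The other enzymes of lower glycolysis did not reach the ratio criterion. Pkm, pyruvate kinase, had signals of 66760.0 and 85209, a ratio of 1.32, and its 4 probes ranged from 1.32 to 2.21. Pgk1, phosphoglycerate kinase, had signals of 178730.0 and 208126, a ratio of 1.21. Gapdh, glyceraldehyde-3-phosphate dehydrogenase and a common reference gene, had signals of 193733 and 208802, a ratio of 1.12. Its 7 probes all had a ratio above 1, from 1.12 at the brightest to 1.43 at the dimmest. Gapdh and other glycolytic genes have near-identical pseudogene copies in the mouse genome, and their part in these signals was not tested.

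Of the genes for the fate of pyruvate, 1 of 2 was higher. Pdk1, a kinase that inhibits pyruvate dehydrogenase and keeps pyruvate out of the mitochondria, had signals of 2155 and 3823, a ratio of 1.84, with its 5 probes between 1.14 and 1.96. Ldha, the lactate dehydrogenase subunit that favours lactate, had signals of 106021 and 146912, a ratio of 1.44 (Z-score 3.55), and 1.83 at its dimmer probe. The Z-score of Ldha passed 2.0 although the ratio stayed under 1.5, as it also did for Tpi1, Gpi1 and Pkm. Over the 18 enzymes of glycolysis and pyruvate, the median log2 ratio was 0.43, with 6 higher and 0 lower. With the mean over the probes of a gene in place of the brightest probe, that median was 0.66, and Tpi1, Eno1, Pkm and Ldha also passed 1.5.

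**Figure D2:**
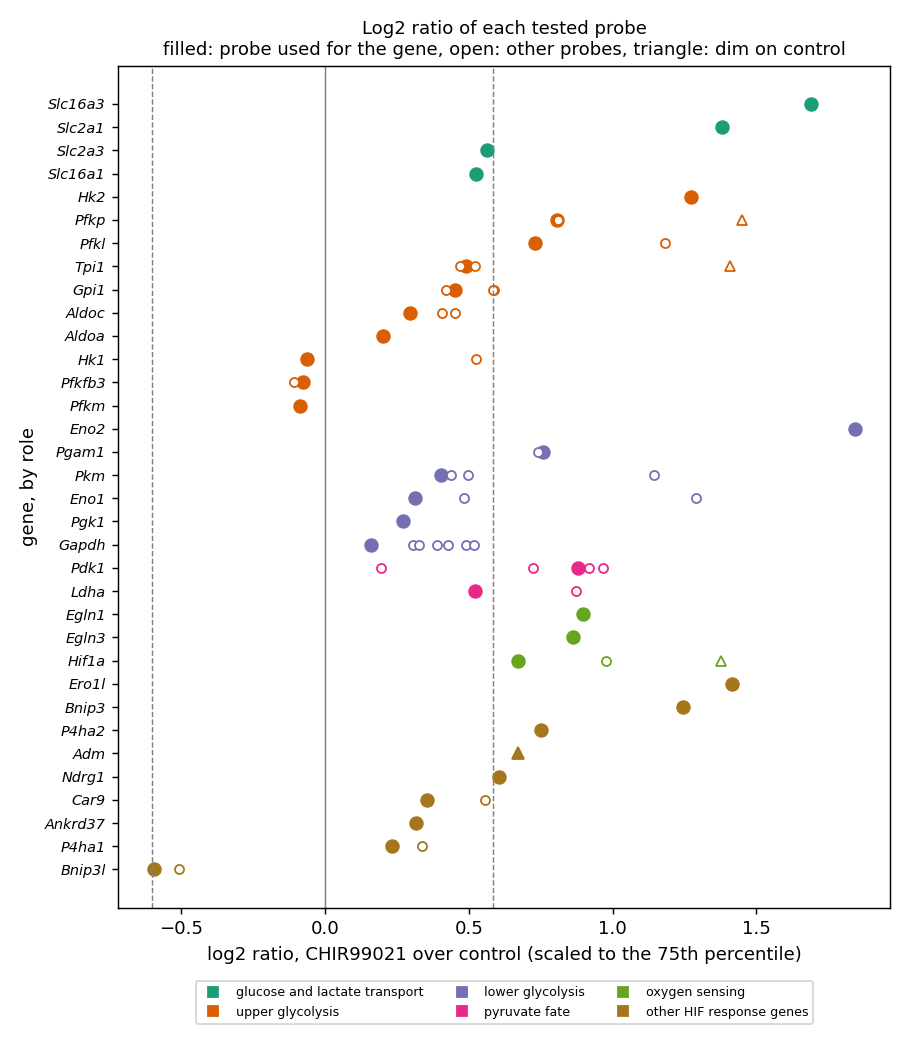
Log2 ratio of each of the 69 tested probes, CHIR99021 over control, by gene. Filled symbols are the probe used for the gene, open symbols its other probes, and triangles probes well above background on the CHIR99021 array alone, plotted at the computed ratio, with dashed lines at the ratios 0.66 and 1.5. All tested probes of 30 genes lie right of 0, those of Pfkm, Pfkfb3 and Bnip3l lie left of 0, and those of Hk1 lie on both sides.

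All 3 genes of oxygen sensing were higher. Hif1a, the oxygen-regulated subunit of HIF-1, had signals of 16505 and 25342, a ratio of 1.59 (log2 0.67, Z-score 2.37), and in the authors' normalized table its log2 ratio of 0.57 missed the criterion. Egln1, the main HIF prolyl hydroxylase of most cells, had signals of 4093 and 7353, a ratio of 1.86 (log2 0.90). Egln3, the hydroxylase most strongly induced by low oxygen in many cells, had signals of 608 and 1065, a ratio of 1.82 (log2 0.86). A dimmer Hif1a probe gave 1.97 and lies on the strand opposite to the other probes of the gene.

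Among the 9 other HIF response genes, 5 were higher. Ero1l, an oxidase that helps proteins fold in the endoplasmic reticulum, had signals of 6718 and 17261, a ratio of 2.67 (log2 1.41, Z-score 4.75), at chr14:45902895-45902954 in mm9. Bnip3, a mitochondrial receptor for mitophagy, had signals of 9356 and 21377, a ratio of 2.37 (log2 1.25, Z-score 4.28), at chr7:146082760-146082819. Bnip3l, its close relative also called NIX, had signals of 4281 and 2733, a ratio of 0.662 (log2 -0.59, Z-score -2.09), at chr14:67606210-67606269. The second probe of Bnip3l had signals of 1401 and 952, a ratio of 0.704. Bnip3 and Bnip3l thus lay on opposite sides of 1, each by more than 2.0 times the estimated error. Bnip3l missed the lower criterion by a narrow margin and met it in 4 of 11 alternatives. Each of these 4 was a change in how the arrays were scaled or the authors' normalized table.

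The prolyl 4-hydroxylase subunits that modify collagen also differed in ratio. P4ha2 had signals of 7699 and 12503, a ratio of 1.68, whereas P4ha1 had 1814 and 2055, a ratio of 1.18. Ndrg1, a stress gene induced by low oxygen, had signals of 29661 and 43516, a ratio of 1.52, just past the criterion, which it missed in 4 of 11 alternatives in processing, at a log2 ratio down to 0.48. Ndrg1 had no second tested probe, so the alternatives that only filter or average probes could not move its ratio. Adm, the precursor of the vasodilator adrenomedullin, had signals of 22.1 and 33.96 and was well above background only after CHIR99021, so that it was at least 1.49-fold higher. Adm counts among the 16 through its computed ratio of 1.59, and it is under the criterion at its limit and with normexp background correction. Car9, the carbonic anhydrase often used as a marker of hypoxia, had signals of 101 and 124, a ratio of 1.28. Ankrd37, another hypoxia-induced gene, had signals of 248 and 297, a ratio of 1.25. The 12 genes of oxygen sensing and other HIF responses had a median log2 ratio of 0.67, with 8 higher and 0 lower, and Bnip3l was their only gene under 1.

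Ratios also differed between the probes of a gene. Of the 34 genes, 17 had several probes measured on both arrays, and in 15 of these the dimmest probe had the higher ratio. Over all 17, the log2 ratio of the dimmest probe minus that of the brightest had a median of 0.16. Over all 5688 genes with several such probes, the dimmest had the higher ratio in 3005 (52.8%), and the same difference over all 5688 had a median of 0.013. Over the 219 genes of the array that were counted as higher and had several such probes, the dimmest had the higher ratio in 70 (32.0%). Their difference had a median of -0.15, the opposite sign to that of the 17. Those 219 were picked by the ratio of their brightest probe, which the 17 were not. For Gapdh the log2 ratio was 0.16 at the brightest probe and 0.31, 0.39, 0.43, 0.33, 0.49 and 0.52 at the following ones in order of falling signal. For Eno1 it was 0.31, 0.48 and 1.29, and for Pkm 0.40, 0.44, 0.50 and 1.14. The probes differ in the transcripts and in the stretch of the gene they were designed on, and the part of either, or of brightness, in the pattern was not tested. The SD of the log2 ratio between probes had a median of 0.12 over the 17 genes and 0.11 over the 5688.

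**Figure D3:**
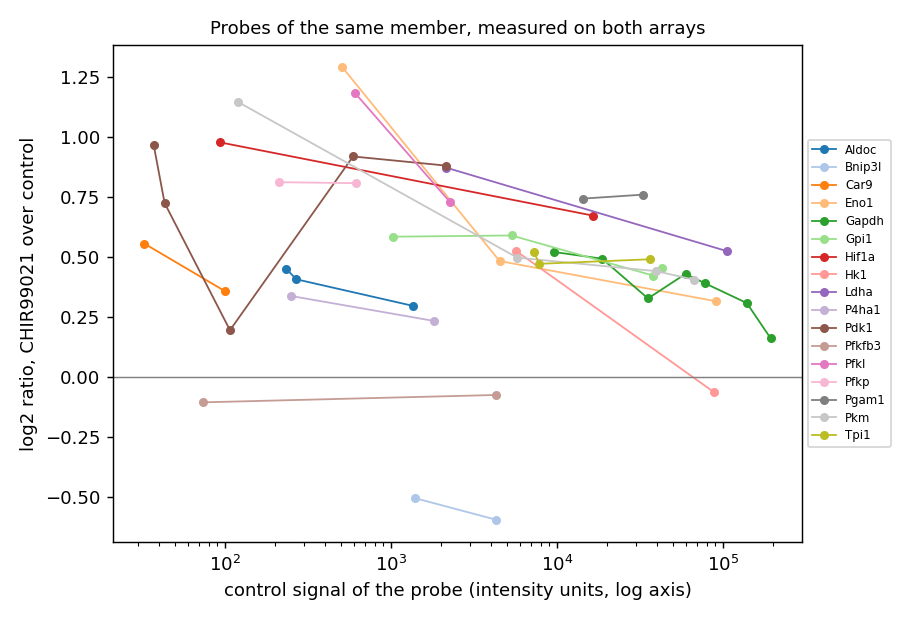
Log2 ratio, CHIR99021 over control, of each probe measured in both conditions against its control signal (intensity units, log axis), for the 17 genes with several such probes, with the probes of a gene joined by a line. In 15 of the 17 genes the point furthest left lies above the point furthest right.

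Position on the array moved with the counts over all genes, so it was set beside the counts of the 34. In the earlier rows, up to the middle row 192, 7 of 18 genes were higher, compared with 5.04% of all genes there. In the later rows 9 of 16 were higher, compared with 10.8% of all genes there. None of the probes used for the 34 genes lay on a spot with uneven pixels.

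Other genes of the same pathways were listed by function, but with earlier results of these data known. Their counts describe the lists and are not an independent check of the result above. Of 23 further HIF response genes, 10 were higher and 0 were lower, with a median log2 ratio of 0.31. The shares over all genes were 8.05% higher and 9.67% lower. The highest were Bhlhe40, a transcriptional repressor, with signals of 1234 and 3417 and a ratio of 2.87, and Hmox1, haem oxygenase, with 17880.2 and 46136 and a ratio of 2.68. Ddit4, an inhibitor of mTORC1, had 9668 and 22786, a ratio of 2.45. Ak4, a mitochondrial adenylate kinase, had a ratio of 2.30, Hilpda, a lipid droplet protein, 2.16, Tfrc, the transferrin receptor, 2.07, and Fam162a 1.99. Higd1a, a mitochondrial protein, had 1.77, Vegfa, the vascular growth factor, 1.73, and Kdm3a, a histone demethylase, 1.51 with a Z-score of 1.53. Kdm3a passed the criterion in 6 of 11 alternatives, and its second probe had a ratio of 1.07. Vegfa missed the criterion with the mean over its 4 probes, at a log2 ratio of 0.53, and its dimmest probe had a ratio of 0.879. Not every HIF response gene was above 1, as Stc1 had a ratio of 0.663, Ccng2 0.693 and Mxi1 0.789.

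The list of further HIF regulators leaves out Hif1a, Egln1 and Egln3, which were all higher. Of its 8 genes, 7 were well above background, 0 were higher and 2 were lower, with a median log2 ratio of -0.33. Epas1, which encodes HIF-2α, had signals of 503 and 203, a ratio of 0.418. Cited2, which competes with HIF-1α for its coactivators, had 9819.6 and 3422, a ratio of 0.361. Arnt, the partner of Hif1a, had a ratio of 1.06, Egln2 1.07 and Vhl 1.48. Arnt2 had signals of 37.9 and 26.1 and was well above background in control cells alone, so that it was at least 1.39-fold lower. Among the HIF subunits measured on both arrays, Hif1a therefore had a ratio above 1.5, Epas1 one under 0.66 and Arnt one near 1.

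Other isoforms of glycolysis and other genes around pyruvate formed a further list. Of its 35 genes, 24 were well above background, and these had a median log2 ratio of 0.01, with 0 higher and 4 lower. The 4 were Pdk2, with signals of 293 and 81.0 and a ratio of 0.287, Pdp1, with 336 and 137 and 0.423, Pdk4, with 1639.9 and 987 and 0.624, and Pck1, which was not well above background after CHIR99021. Pck1 counts through its computed ratio of 0.165, and at its limit, at least 1.28-fold lower, it does not reach the criterion, which leaves 3 genes measured as lower. The pyruvate dehydrogenase kinases thus lay on both sides of 1, Pdk1 at 1.84, Pdk3 at 0.951, Pdk4 at 0.624 and Pdk2 at 0.287. Pdp1, the phosphatase that opposes these kinases, was lower as well, while Pdp2 had a ratio of 1.23. The highest ratios of the list were those of Bsg, a chaperone of the lactate carriers, at 1.30, Pfkfb2 at 1.28 and Bpgm at 1.27, which overlap those of listed enzymes such as Eno1 and Aldoc. Ldhb, the lactate dehydrogenase subunit that favours pyruvate, had 15376 and 12163, a ratio of 0.821. Gapdhs, Pgk2, Pgam2, Pklr, Ldhc, Slc2a2, Slc2a4 and Slc16a7, isoforms of other tissues, were not well above background on either array.

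The pathways next to glycolysis, also listed with earlier results of these data known, served as a comparison. All 7 genes of the pentose phosphate pathway were measured, with a median log2 ratio of 0.11 and ratios from 0.927 to 1.16. All 16 genes of the tricarboxylic acid cycle had ratios from 0.865 to 1.29, with a median log2 ratio of 0.13. None of these 23 genes was higher or lower, compared with 16 of the 34 genes of glycolysis and hypoxia. With 1 array per condition, the difference between the lists is a description of these arrays.

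**Figure D4:**
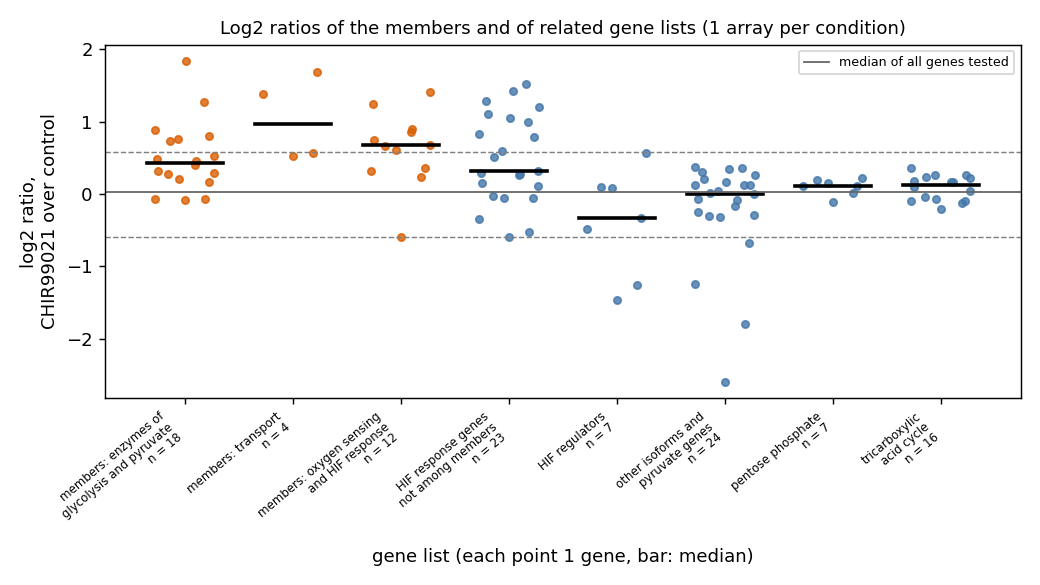
Log2 ratio, CHIR99021 over control, of each gene of the 34 (orange, in 3 groups) and of related lists (blue), with the median of each list as a bar, the median of all genes as a line and the ratios 0.66 and 1.5 as dashed lines. The medians are 0.43, 0.97 and 0.67 for the orange groups, 0.31 for further HIF response genes, -0.33 for the further HIF regulators and 0.01, 0.11 and 0.13 for the remaining lists.

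Across the alternatives in processing, the log2 ratio of Eno2 ranged from 1.77 to 1.88, that of Slc16a3 from 1.60 to 1.72, that of Ero1l from 1.32 to 1.45 and that of Slc2a1 from 1.30 to 1.41. The neighbours Ero1l and Slc2a1 overlapped in range, as did Hk2 and Bnip3 behind them, at 1.21 to 1.30 and 1.15 to 1.28. Among the 34 genes, the widest ranges were those of Hk1, from -0.13 to 0.53, and Adm, from 0.18 to 0.71.

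**Figure D5:**
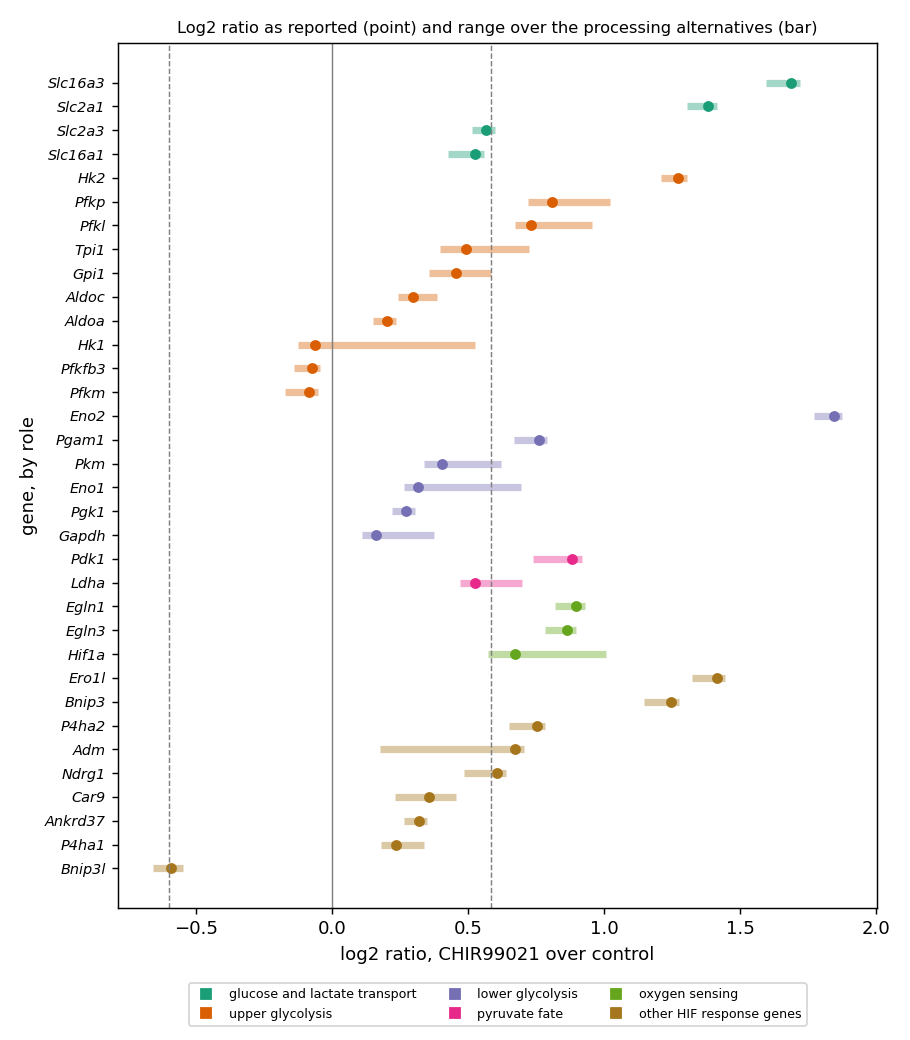
Log2 ratio of each of the 34 genes as given in the text (points) and its range over the alternatives in processing (bars), with dashed lines at the ratios 0.66 and 1.5. The bar of Hk1 crosses 0, and the bars of Ndrg1, Hif1a and Adm cross the line at 1.5 from above. The bars of Slc2a3, Tpi1, Eno1, Pkm and Ldha cross the line at 1.5 from below, and that of Bnip3l crosses the line at 0.66.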

How the data were processed

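Total RNA of mDE6 cells was amplified, labelled with Cy3 and hybridised to a 1-colour Agilent mouse array per condition. The authors deposited spot intensities from Feature Extraction (10.7.1.1 in the file headers, 9.5.1.1 in the submitters' processing notes), background-subtracted and not normalized between arrays, and a table of normalized intensities, used as an alternative, whose sorted columns were equal at 99.0% of positions (relative tolerance 1e-06) and whose method is not given in the sources used here. The methods name a human array, whereas the headers name a mouse design on mm9.

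Log2 intensities minus the 75th percentile of each array were computed in Python 3.11.15 (numpy 2.4.6, pandas 2.3.3; matplotlib 3.10.9 for plots). Control and outlier-marked spots were left out, spots of a probe were averaged, and 28066 of 56605 probes, each well above background in 1 or both conditions, were kept. Of 59305 spots, 49.8% in control and 48.3% in CHIR99021 were well above background and 0 were saturated. With 1 array per condition, the spread of the ratios between cultures was not measured. For probes not well above background in a condition, the fold is a limit against their own signal or the lowest signal well above background there, whichever was higher. The ratio of at most 0.66 follows the methods, and that of at least 1.5 mirrors it. The scripts were tested on simulated data.

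Genes named are every member, and those of the other lists at a ratio of at least 1.5 or at most 0.66. Further genes of these lists were named after their values were seen, and the members, lists and markers were chosen with earlier results of these data known. The gene table of GRCm38.p6 held the accessions of 31 of the 34 probes used, and 1 symbol differed. Promoters were matched by symbol, and coordinates were not converted between builds. Alternatives were quantile and median scaling, no scaling, the percentile over probes detected in both conditions, normexp with an offset of 50 (limma 3.58.1, R 4.3.3), the authors' table, other filters on dim probes, the mean over the probes of a gene, earlier rows alone, and uneven spots left out. Filters on probes, rows or spots were applied after scaling. For a gene with 1 tested probe at 1 spot, these filters and the mean over probes could drop the gene but not move its ratio.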

Additional observations from a re-analysis of the deposited data

How the results depend on the processing

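The 5 medians given next stayed above 0, and more of the 34 genes were higher than lower, under every alternative run; the medians of single roles and of the smaller lists were not recomputed. With main values of 0.55 for the 34 genes, 0.43 for the glycolysis enzymes, 0.67 for oxygen sensing and HIF response, 0.11 for other pathway genes and 0.11 for the neighbouring pathways, the median log2 ratios were, in this order, 0.50, 0.36, 0.62, 0.080 and 0.028 with quantile normalization, 0.49, 0.35, 0.61, 0.079 and 0.013 in the authors' table, 0.49, 0.38, 0.62, 0.060 and 0.059 without scaling, and 0.49, 0.38, 0.62, 0.061 and 0.061 with the percentile over probes detected in both conditions. In these 4 settings 1 gene, Bnip3l, was lower and Ndrg1 was no longer higher. Normexp gave 0.63 for oxygen sensing and HIF response. The mean over the probes of a gene gave 0.68 for the 34 genes, 0.66 for the enzymes and 0.71 for oxygen sensing and HIF response, and added Eno1, Pkm, Ldha and, through a probe well above background after CHIR99021 alone, Tpi1 to the higher genes. Earlier rows alone, which hold tested probes of 25 of the 34 genes, gave 9 higher genes and 0.52, 0.47 and 0.072 for the enzymes, oxygen sensing and HIF response, and the neighbouring pathways. In the other settings 14 to 20 genes were higher. Hif1a was lost in the authors' table, Adm and Pck1 with normexp (Pck1 at a log2 ratio of -0.58 against -2.60), Kdm3a in 5 settings and Vegfa with the mean over probes, and Slc2a3 was gained with median scaling. Pck1 lay on an uneven spot and had no value without such spots. The direction of Hk1 depended on the probe. Over all genes, 1516 were higher and 1822 lower, compared with 907 and 909 with normexp, 854 and 974 when both arrays had to be well above background, 3372 and 3354 without a filter, 563 and 792 in the earlier rows and 1052 and 1348 without uneven spots, so that lower genes outnumbered higher ones in these settings except without a filter. Without a filter the median log2 ratio of all genes was 0.18. No paired analysis was possible because there were no replicates to pair or to leave out. The cause of these shifts was not tested.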
